A study of Mus musculus with 12 samples.

Results

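The 10 genes described here encode proteins that set how long inflammatory mRNAs last: the tristetraprolin family (Zfp36, Zfp36l1, Zfp36l2), the Regnase family (Zc3h12a, Zc3h12c, Zc3h12d), the Roquins (Rc3h1, Rc3h2), the stabilising protein HuR (Elavl1) and the splicing and decay factor KSRP (Khsrp). They were chosen by symbol: of the probe sets with exactly 1 annotated symbol, the one with the highest mean log2 value over all 12 arrays was used for each gene. All 10 symbols were found among the 19938 tested, 8 with a single probe set and 2, Zc3h12c and Rc3h1, with 2 probe sets each. The cells were macrophages grown from the bone marrow of C3H/HeN mice, and Affymetrix Mouse Gene ST 1.0 arrays were used to profile their RNA. Cells received 100 ng/ml lipopolysaccharide (LPS, an outer membrane component of Gram-negative bacteria that Toll-like receptor 4 senses) for 270 min, for 45 min, or not at all (0 min). All cultures, unstimulated ones included, also received 200 µM 4-thiouridine for the final 35 min, and the RNA that had taken up this uridine analogue was purified as nascent RNA out of each culture's total RNA. Nascent and total RNA at 3 times made 6 groups of 2 arrays, 1 from each of 2 independent experiments. The macrophages were grown from marrow in interleukins, stem cell factor and L-cell conditioned medium, a source of M-CSF, and how many mice gave marrow to a culture is not stated in the sources used here.

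Tristetraprolin and its relatives are zinc finger proteins that bind AU-rich elements in mRNA and recruit the CCR4-NOT deadenylase, which shortens the poly(A) tail and starts decay. Regnase-1, the product of Zc3h12a, is an endonuclease that cuts stem-loops in mRNAs such as that of Il6, and the Roquins bind similar stem-loops and recruit the same deadenylase. HuR binds AU-rich elements and protects mRNAs, while KSRP binds them and brings in the exosome. In macrophages several of these genes are themselves induced by LPS, and tristetraprolin acts on its own mRNA.

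Promoter windows are shown for Zfp36, Zc3h12a and Zc3h12c, the 3 members called higher after LPS, and for Zfp36l1, whose signal was lower at 270 min by the widest margin of the 10. Each is the 250 bases before the RefSeq transcription start in GRCm38.p6, given on the gene's own strand, which is the minus strand for all 4. Capitals mark matches to 7 searched motifs.
Zfp36, chr7:28379229-28379478: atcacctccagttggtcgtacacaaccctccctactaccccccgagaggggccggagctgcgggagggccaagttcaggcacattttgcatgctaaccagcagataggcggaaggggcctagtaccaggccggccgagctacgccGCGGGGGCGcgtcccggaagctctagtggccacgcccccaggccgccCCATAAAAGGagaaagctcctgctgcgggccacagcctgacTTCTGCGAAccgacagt
Zc3h12a, chr4:125127882-125128131: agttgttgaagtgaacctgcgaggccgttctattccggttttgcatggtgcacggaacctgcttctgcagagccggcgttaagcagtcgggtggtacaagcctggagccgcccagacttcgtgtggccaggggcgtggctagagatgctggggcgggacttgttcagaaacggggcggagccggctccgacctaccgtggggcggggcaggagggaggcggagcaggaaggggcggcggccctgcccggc
Zc3h12c, chr9:52168407-52168656: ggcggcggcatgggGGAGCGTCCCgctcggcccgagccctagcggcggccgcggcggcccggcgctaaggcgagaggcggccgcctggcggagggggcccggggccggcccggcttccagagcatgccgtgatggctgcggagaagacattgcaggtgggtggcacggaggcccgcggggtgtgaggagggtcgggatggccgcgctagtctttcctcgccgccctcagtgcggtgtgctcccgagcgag
Zfp36l1, chr12:80113014-80113263: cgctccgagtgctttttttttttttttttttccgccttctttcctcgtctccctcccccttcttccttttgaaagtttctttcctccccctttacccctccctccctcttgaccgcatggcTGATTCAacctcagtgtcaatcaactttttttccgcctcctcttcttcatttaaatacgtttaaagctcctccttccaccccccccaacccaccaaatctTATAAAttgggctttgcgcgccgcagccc
The motifs were kappaB, CArG and TATA, searched by their usual consensus on both strands, and TGANTCA (AP-1), TGACGTCA (CRE), GCGNGGGCG (EGR) and TTCNNNGAA (STAT), with N any base. The Zfp36 window held an EGR match from 105 to 97 bases before the start, a CArG match (the element bound by serum response factor) from 58 to 49 bases before it and a STAT match from 17 to 9 bases before it. The Zc3h12c window held a kappaB match on the opposite strand, from 236 to 227 bases before the start, and the Zc3h12a window held none of the 7. In Zfp36l1 an AP-1 match lay 129 to 123 bases and a TATA match 29 to 24 bases before the start. Of 32851 RefSeq promoter windows of the same length, 1.47% held a CArG match, 4.70% EGR, 7.02% STAT, 7.25% kappaB, 6.75% AP-1, 1.55% CRE and 15.6% TATA. The windows of the other members with an entry, Zc3h12d, Rc3h1, Rc3h2, Elavl1 and Khsrp, held 1 further match, to AP-1 in Rc3h1. Zc3h12c had a second RefSeq start, whose window held none of the 7. These matches describe letters and not bound sites.

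The values are log2 of the deposited intensities. Median intensity ranged from 82.9 to 105.3 over the 12 arrays, and arrays of the same group correlated at r = 0.981 to 0.989 across genes, which are not independent replicates. As a background level, the 95th percentile of 1027 olfactory receptor symbols was taken on each array and lay between 6.18 and 6.80. Of 10 macrophage markers, Adgre1, Cd68 and Csf1r included, 10 lay above that level on all 12 arrays, with a summed level of 14.07 to 15.51. Of 8 mast cell markers, Kit did so, against none of 8 neutrophil, 5 B cell or 4 erythroid markers, 1 of 4 T cell markers (Cd3e) and 2 of 6 stromal markers (Col1a1 and Col1a2). The summed mast cell level was higher at 270 min: it averaged 9.69 in nascent RNA at 270 min against 8.87 at 0 min, and 10.21 in total RNA at 270 min against 9.37 at 0 min. Kit averaged 7.64 in nascent RNA at 270 min against 6.82 at 0 min, and Hdc 8.48 in total RNA at 270 min against 6.31 at 0 min. In total RNA at 0 and 270 min, Cpa3 averaged 7.45 and 8.03, Ms4a2 5.79 and 6.40, and Cma1 5.17 and 5.47. Fcer1a averaged 6.31 and 6.28 there, Tpsb2 6.19 and 6.24, and Mcpt4 4.96 and 5.10. The mean of Cpa3 in total RNA thus lay above 6.80 before LPS. The part of mast cell transcripts in the 270 min results was not tested.

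**Figure D1:**
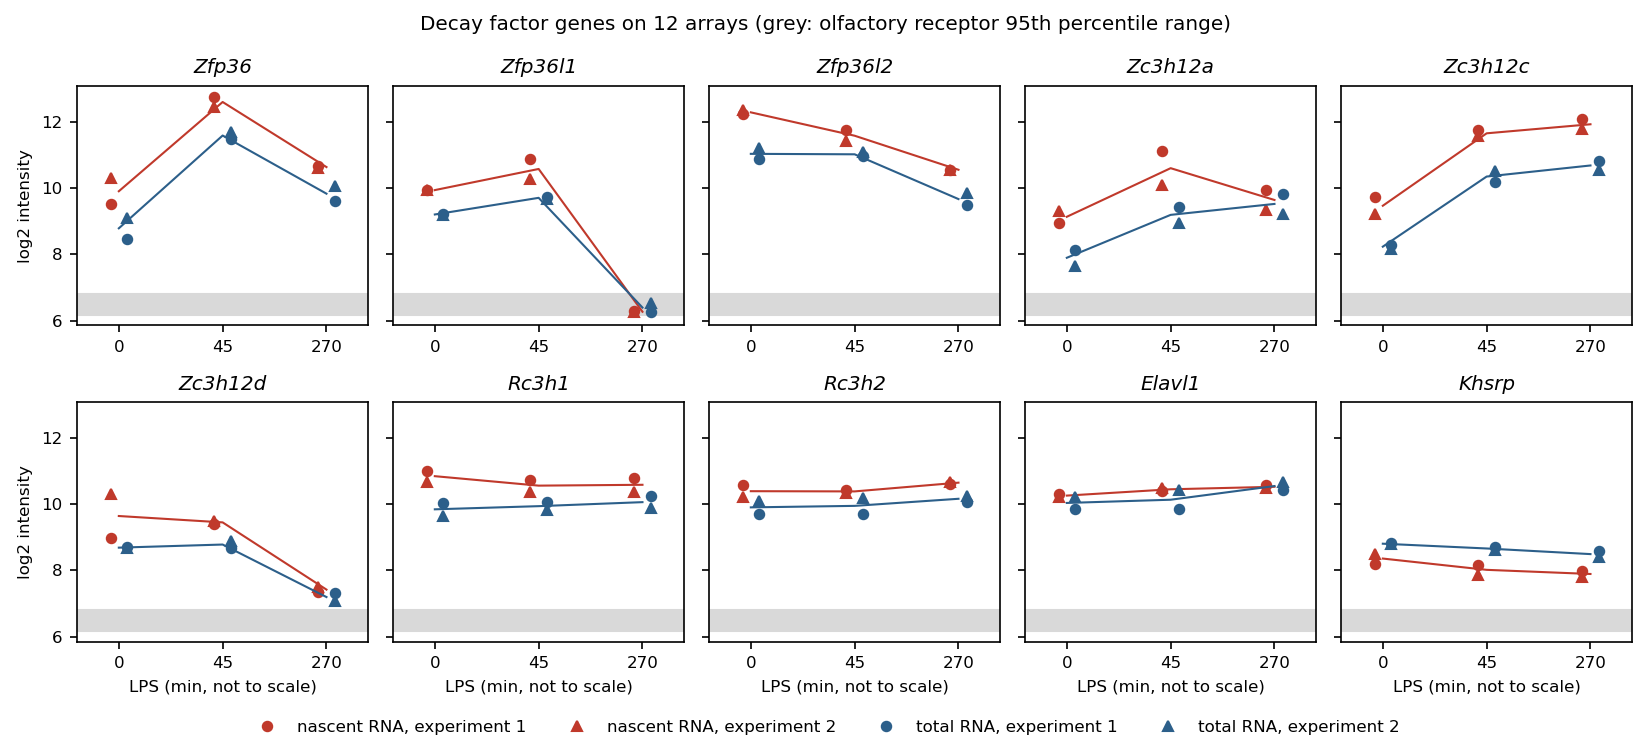
Log2 intensity (y axis) of each of the 10 genes on the 12 arrays at 0, 45 and 270 min of LPS (x axis, not to scale); red is nascent and blue total RNA, circles are experiment 1, triangles experiment 2, and lines join the group means. Zfp36 peaks at 45 min, Zc3h12c stays high at 270 min, Zfp36l1 drops into the grey band at 270 min (the range of the olfactory receptor level, 6.18 to 6.80), and the group means of the Roquins, Elavl1 and Khsrp span under 1 log2 unit.

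The tristetraprolin family split with LPS. Zfp36 rose in nascent and total RNA at 45 min and was lower again at 270 min than at 45 min, while Zfp36l1 and Zfp36l2 fell by 270 min in both fractions. In bulk RNA, fewer cells that make a transcript and less of it per cell cannot be told apart.

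Zfp36 encodes tristetraprolin, which binds AU-rich elements of Tnf and other cytokine mRNAs. Its nascent RNA level was 9.50 and 10.30 at 0 min, 12.75 and 12.44 at 45 min and 10.65 and 10.61 at 270 min in experiments 1 and 2. Total RNA levels were 8.47 and 9.10 at 0 min, 11.48 and 11.68 at 45 min and 9.60 and 10.06 at 270 min. In both fractions the 45 min arrays lay above those of the other times, and the 270 min arrays lay above the 0 min arrays with no overlap. At 45 min against 0 min the difference was 2.69 ± 0.28 in nascent RNA (log2, SE, n = 2 against 2; 6.46-fold, limma adjusted p = 4.49e-05) and 2.80 ± 0.28 in total RNA (6.95-fold, adjusted p = 6.73e-05). These exceeded the differences of 99.6% of all genes in nascent and 99.8% in total RNA. At 270 min against 45 min, Zfp36 fell by 1.96 ± 0.28 on the log2 scale in nascent RNA (adjusted p = 0.00017) and by 1.75 ± 0.28 in total RNA (adjusted p = 0.000526). Total RNA was still higher at 270 min than at 0 min (1.04 ± 0.28, adjusted p = 0.0169). That call was lost without the second 270 min total array (0.82, adjusted p = 0.144) or the first 0 min total array (0.73, adjusted p = 0.176). In nascent RNA the same difference was 0.73 ± 0.28 and missed the threshold (adjusted p = 0.0773), but passed with experiment as a block (adjusted p = 0.024).

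Zfp36l1 encodes a paralog that also binds AU-rich elements and recruits CCR4-NOT. Its nascent RNA level was 9.94 and 9.93 at 0 min, 10.88 and 10.27 at 45 min and 6.28 and 6.25 at 270 min. Total RNA gave 9.21 and 9.19 at 0 min, 9.74 and 9.67 at 45 min and 6.26 and 6.53 at 270 min. Both nascent arrays and the second total array at 270 min lay under their own olfactory receptor level, so Zfp36l1 was above it on 9 of 12 arrays. At 270 min nascent Zfp36l1 was therefore at least 9.36-fold lower than at 0 min (adjusted p = 5.04e-08) and at least 14.6-fold lower than at 45 min (adjusted p = 2.5e-08), set against that level, with measured differences of -3.67 and -4.31 on the log2 scale. In total RNA at 270 min the measured difference was -2.81 ± 0.22 from 0 min (adjusted p = 9.63e-07) and -3.31 ± 0.22 from 45 min (adjusted p = 3.39e-07). At 45 min against 0 min, the arrays did not overlap in either fraction, but the differences of 0.64 ± 0.22 in nascent RNA (adjusted p = 0.0943) and 0.50 ± 0.22 in total RNA (adjusted p = 1) did not pass.

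Zfp36l2, the third member, is known for its role in lymphocyte and blood cell development. Its nascent RNA level was 12.22 and 12.34 at 0 min, 11.73 and 11.42 at 45 min and 10.55 and 10.54 at 270 min. In total RNA it was 10.86 and 11.20 at 0 min, 10.95 and 11.08 at 45 min and 9.50 and 9.84 at 270 min. Nascent arrays stepped down at each time with no overlap, while total arrays of 0 and 45 min overlapped and those of 270 min lay below both. At 270 min against 0 min the difference was -1.73 ± 0.19 in nascent RNA (3.32-fold lower, adjusted p = 1.7e-05) and -1.36 ± 0.19 in total RNA (2.57-fold lower, adjusted p = 0.000188). From 45 to 270 min it was -1.03 ± 0.19 in nascent RNA (adjusted p = 0.00174) and -1.35 ± 0.19 in total RNA (adjusted p = 0.000238). Already at 45 min nascent Zfp36l2 was lower than at 0 min (-0.70 ± 0.19, adjusted p = 0.038), against -0.01 ± 0.19 in total RNA (adjusted p = 1). The nascent and total responses differed by -0.69 ± 0.25, which did not pass (limma adjusted p = 0.231). The nascent call at 45 min was lost when any 1 of its 4 arrays was left out: -0.86 and -0.55 without the first and the second 45 min array, and -0.77 and -0.64 without the first and the second 0 min array, with adjusted p from 0.0624 to 0.321.

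The Regnase family also held members of opposite direction. Zc3h12c rose at 45 min and was still high at 270 min in both fractions, Zc3h12a rose in nascent RNA at 45 min and in total RNA at 270 min, and Zc3h12d fell at 270 min.

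Zc3h12a encodes Regnase-1, the endonuclease that cuts the mRNAs of Il6 and other cytokines. Its nascent RNA level was 8.94 and 9.32 at 0 min, 11.11 and 10.09 at 45 min and 9.95 and 9.33 at 270 min. Its total RNA level was 8.14 and 7.65 at 0 min, 9.43 and 8.95 at 45 min and 9.83 and 9.21 at 270 min. Nascent signal was highest at 45 min, whereas total signal at 270 min overlapped that at 45 min, both above 0 min. The rise at 45 min against 0 min was 1.47 ± 0.35 in nascent RNA (2.76-fold, adjusted p = 0.018). It was 0.96 without the first 45 min array (adjusted p = 0.155), 1.28 without the first 0 min array (adjusted p = 0.0903) and 1.65 without the second (adjusted p = 0.0686), none of which passed. In total RNA the difference at 45 min was 1.29 ± 0.35, larger than that of 99.4% of genes, with adjusted p = 0.247 and, with experiment as a block, adjusted p = 0.0135. The nascent and total responses at 45 min differed by 0.17 ± 0.32, which did not pass (limma adjusted p = 0.878). Total Zc3h12a at 270 min against 0 min rose by 1.62 ± 0.35 (3.08-fold, adjusted p = 0.00422), against 0.51 ± 0.35 in nascent RNA (adjusted p = 0.304). From 45 min, nascent RNA at 270 min differed by -0.96 ± 0.35 (adjusted p = 0.0828, and 0.0104 with the block) and total RNA by 0.33 ± 0.35 (adjusted p = 0.559).

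Zc3h12c encodes another protein of the family with the same type of RNase domain. Its nascent RNA level was 9.72 and 9.21 at 0 min, 11.74 and 11.56 at 45 min and 12.07 and 11.78 at 270 min. Total RNA gave 8.29 and 8.17 at 0 min, 10.18 and 10.51 at 45 min and 10.83 and 10.53 at 270 min. Stimulated arrays lay above unstimulated ones in both fractions, and the 270 min arrays lay above the 45 min arrays by a small margin. The rise at 45 min against 0 min was 2.18 ± 0.22 in nascent RNA (4.54-fold, adjusted p = 4.04e-05) and 2.11 ± 0.22 in total RNA (4.33-fold, adjusted p = 0.00011). After 270 min against 0 min it was 2.46 ± 0.22 in nascent RNA (5.49-fold, adjusted p = 2.45e-06) and 2.45 ± 0.22 in total RNA (5.46-fold, adjusted p = 3.94e-06). Between 270 and 45 min the difference was 0.27 ± 0.22 in nascent RNA (adjusted p = 0.56) and 0.33 ± 0.22 in total RNA (adjusted p = 0.339). The second Zc3h12c probe set gave 1.72 at 45 min and 2.30 at 270 min against 0 min in nascent RNA, and 1.72 and 2.54 at the same times in total RNA.

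Zc3h12d encodes a family member, Regnase-4, known mainly from lymphocytes. Its nascent RNA level was 8.98 and 10.30 at 0 min, 9.40 and 9.49 at 45 min and 7.36 and 7.49 at 270 min. In total RNA it was 8.70 and 8.67 at 0 min, 8.68 and 8.88 at 45 min and 7.31 and 7.09 at 270 min. The 270 min arrays lay below all others in each fraction and still above the olfactory receptor level, while 0 and 45 min overlapped. The difference at 270 min against 0 min was -2.22 ± 0.32 in nascent RNA (4.66-fold lower, adjusted p = 0.000144) and -1.49 ± 0.32 in total RNA (2.81-fold lower, adjusted p = 0.00401). The nascent value was -2.88 without the first 0 min array and -1.56 without the second, and passed in both cases. From 45 min it was -2.03 ± 0.32 in nascent RNA (adjusted p = 0.000367) and -1.58 ± 0.32 in total RNA (adjusted p = 0.00286). The 0 min nascent arrays were the most widely spaced pair of replicates among the members. At 45 min against 0 min nascent Zc3h12d gave -0.19 ± 0.32 (adjusted p = 0.737), or -0.85 without the first 0 min array (adjusted p = 0.0294), and total RNA gave 0.09 ± 0.32 (adjusted p = 1).

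**Figure D2:**
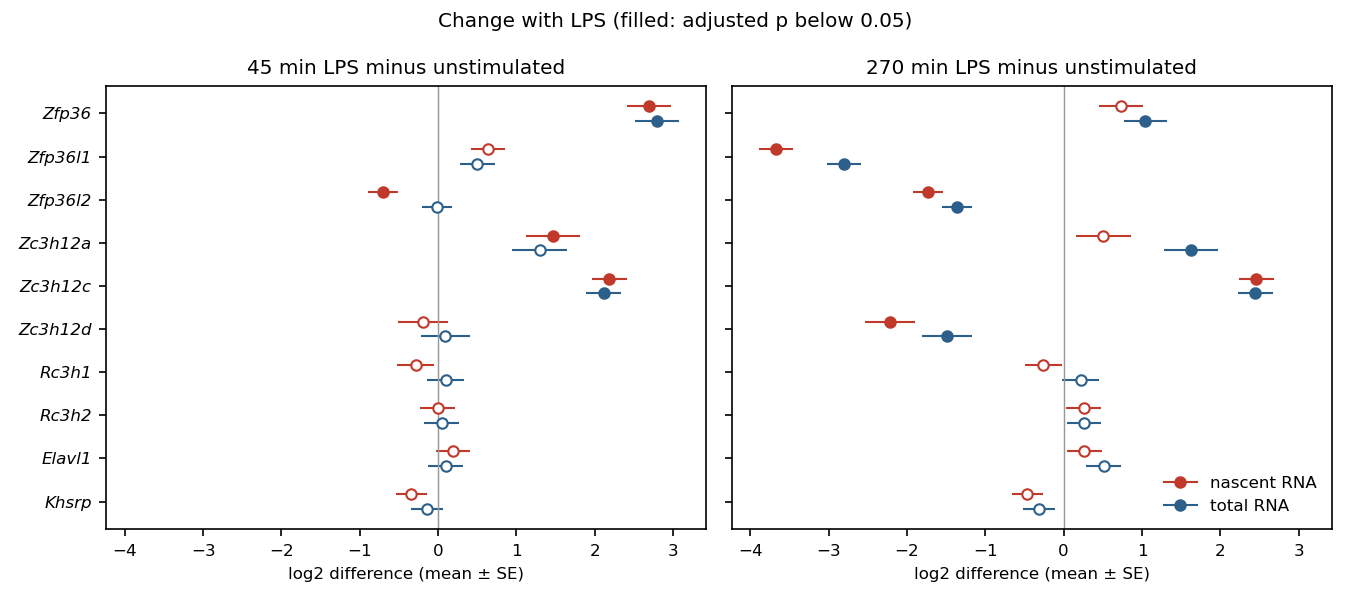
Log2 difference from unstimulated cells (x axis, mean ± SE) for each gene after 45 min (left) and 270 min (right) of LPS in nascent (red) and total (blue) RNA; filled points passed an adjusted p of 0.05. Zfp36 and Zc3h12c lie above 2 at 45 min, and Zfp36l1, Zfp36l2 and Zc3h12d lie below -1 at 270 min in both fractions.

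The Roquins, HuR and KSRP did not pass the test between any 2 times in either fraction. Rc3h1 encodes Roquin-1, a stem-loop binding protein, and Rc3h2 its paralog Roquin-2. Nascent Rc3h1 was 11.01 and 10.67 at 0 min, 10.74 and 10.38 at 45 min and 10.80 and 10.36 at 270 min, and total Rc3h1 was 10.03 and 9.65 at 0 min, 10.06 and 9.81 at 45 min and 10.24 and 9.88 at 270 min. On this probe set experiment 1 was the higher array in each group, and the times overlapped. On the second Rc3h1 probe set experiment 2 was the higher array in every group but nascent RNA at 0 min. Against 0 min, the nascent difference was -0.29 at 45 min (95% interval -0.80 to 0.23) and -0.26 at 270 min (-0.77 to 0.26), and the total difference was 0.10 at 45 min (-0.42 to 0.61) and 0.22 at 270 min (-0.30 to 0.73). The second Rc3h1 probe set lay within 0.29 of no change in all 4 of these comparisons. Nascent Rc3h2 was 10.56 and 10.21 at 0 min, 10.43 and 10.33 at 45 min and 10.61 and 10.68 at 270 min. Total Rc3h2 was 9.70 and 10.10 at 0 min, 9.71 and 10.18 at 45 min and 10.06 and 10.26 at 270 min. Both fractions had their highest mean at 270 min, where Rc3h2 differed from 0 min by 0.26 in nascent (-0.22 to 0.73) and 0.26 in total RNA (-0.22 to 0.74). These intervals allow changes of up to 0.80 on the log2 scale in Rc3h1 and 0.74 in Rc3h2, so small changes were not detectable with 2 arrays a group.

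Elavl1, which encodes HuR, was 10.30 and 10.22 at 0 min, 10.40 and 10.50 at 45 min and 10.57 and 10.47 at 270 min in nascent RNA. Total RNA gave 9.87 and 10.20 at 0 min, 9.84 and 10.43 at 45 min and 10.41 and 10.67 at 270 min. The 270 min arrays lay above the 0 min arrays in both fractions, with a difference of 0.27 in nascent RNA (95% interval -0.21 to 0.74) and of 0.51 in total RNA (0.03 to 0.98, adjusted p = 0.138). Khsrp, which encodes KSRP, was 8.21 and 8.51 at 0 min, 8.17 and 7.86 at 45 min and 7.99 and 7.80 at 270 min in nascent RNA. Its total RNA gave 8.83 and 8.78 at 0 min, 8.70 and 8.62 at 45 min and 8.58 and 8.41 at 270 min. Khsrp thus had its lowest mean at 270 min in each fraction, with a difference from 0 min of -0.46 in nascent RNA (-0.90 to -0.03, adjusted p = 0.113) and of -0.31 in total RNA (-0.74 to 0.12, adjusted p = 0.329).

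Counted over the 10 genes, nascent RNA at 45 min against 0 min had 3 called higher and 1 lower, where 3.05% of all 19938 genes were called higher and 5.88% lower. Nascent RNA at 270 min against 0 min had 1 called higher and 3 lower, against 8.87% and 14.2% of all genes. With experiment as a block, 2 were called higher there, Zfp36 and Zc3h12c. Set against 45 min, nascent RNA at 270 min had 4 of the 10 called lower (10.0% of all genes) and none higher (6.74% of all genes), also at an unadjusted p of 0.05. In total RNA at 45 min against 0 min, 2 were called higher, where 0.662% of all genes were. There limma called none of the 10 lower, also at an unadjusted p of 0.05, as against 0.0201% of all genes. Total RNA at 270 min against 0 min had 3 called higher and 3 lower, with 7.02% and 12% of all genes. Set against 45 min, total RNA at 270 min had 4 called lower (11.5% of all genes) and none higher, also at an unadjusted p of 0.05 (6.64% of all genes). The arrays of the times compared did not overlap for 7 of the 10 in nascent RNA at 45 min, 9 at 270 min against 0 min, and for 5 and 8 in total RNA at the same times. Of all genes, 55.0% and 68.0% did not overlap in nascent RNA at 45 and 270 min, and 25.8% and 56.9% in total RNA, so that nothing is read from the members' counts. The median of the 10 genes was 0.09 in nascent RNA at 45 min and 0.00 at 270 min against 0 min, beside medians of 0.11 and 0.12 over all genes. In total RNA it was 0.10 at 45 min and 0.24 at 270 min, beside -0.01 and 0.07 over all genes.

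Most of the 10 genes had more nascent than total signal for the same culture. The ratio is relative to the other genes on the arrays; as background, transcripts that turn over quickly tend to have a high one. In unstimulated cells 7 of the 10 were called higher in nascent RNA, where 7.58% of all genes were, and limma called none lower (1 at an unadjusted p of 0.05), against 8.42% of all genes. Zfp36l2 had 1.36 and 1.15 more log2 signal in nascent than in total RNA in experiments 1 and 2 at 0 min (1.25 ± 0.18, adjusted p = 4.96e-05). Zc3h12a had 0.80 and 1.67 (1.24 ± 0.23, adjusted p = 0.000662), Zc3h12c 1.43 and 1.04 (1.23 ± 0.19, adjusted p = 0.000132) and Zfp36 1.03 and 1.20 (1.12 ± 0.19, adjusted p = 0.00034). Rc3h1, which passed no comparison between times, also stood at 1.00 ± 0.18 (adjusted p = 0.000532). On the second Rc3h1 probe set nascent RNA averaged 10.57 and total RNA 9.22 at 0 min. Experiments agreed in sign for all 7, but the 2 values for Zc3h12a and for Zc3h12d were far apart. For Zc3h12d they were 0.28 and 1.63, and its call (0.95 ± 0.26, adjusted p = 0.0135) was lost without the second culture (0.28, adjusted p = 0.684) and without pairing by culture (adjusted p = 0.0718). Without the second culture Zc3h12a gave 0.80 and kept its call. Zfp36l1 (0.74 ± 0.22, adjusted p = 0.0221) lost its call without the first culture (0.75, adjusted p = 0.0509) or the second (0.72, adjusted p = 0.0582), and with each array centred on its median (0.72, adjusted p = 0.0655). Rc3h2 at 0.49 ± 0.21 (adjusted p = 0.144) and Elavl1 at 0.22 ± 0.20 (adjusted p = 0.626) did not pass, and Rc3h2 gave 0.86 without the second culture (adjusted p = 0.00212).

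At 45 min 6 of the 10 were called higher in nascent RNA (11.2% of all genes) and 1, Khsrp, lower (14.2% of all genes). Zc3h12a stood at 1.41 ± 0.23 (adjusted p = 0.000101), Zc3h12c at 1.30 ± 0.19 (adjusted p = 3.67e-05) and Zfp36 at 1.01 ± 0.19 (adjusted p = 0.000512). Without the first culture at 45 min, Zc3h12a gave 1.14 (adjusted p = 0.0581), Zfp36 0.76 (adjusted p = 0.0975) and Zfp36l1 0.60 (adjusted p = 0.171), and 1 of the 6 calls was left, that of Zc3h12c at 1.05. The calls of Zfp36l2 (0.56 ± 0.18, adjusted p = 0.0251), Rc3h1 (0.62 ± 0.18, adjusted p = 0.0155) and Khsrp (-0.64 ± 0.21, adjusted p = 0.0291) were lost when either culture was left out, Zfp36l2 then giving 0.34 without the first and 0.78 without the second, Rc3h1 0.57 and 0.67, and Khsrp -0.76 and -0.53. Those of Zfp36l2 (adjusted p = 0.0569) and Rc3h1 (adjusted p = 0.0833) were also lost without pairing by culture.

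At 270 min 3 were called higher, Zc3h12c, Zfp36l2 and Zfp36, with 6.24% of all genes, and limma called none lower (1 at an unadjusted p of 0.05), with 9.03%. Zc3h12c had 1.24 in both experiments (1.24 ± 0.19, adjusted p = 0.000111), close to its values at 0 and 45 min. Zfp36l2 had 0.88 ± 0.18 (adjusted p = 0.00144) and 0.71 without the first culture (adjusted p = 0.176). Zfp36 had 0.80 ± 0.19 (adjusted p = 0.00641), which was lost without the first culture (0.56, adjusted p = 0.455) and without pairing by culture (adjusted p = 0.0899). Rc3h1, at 0.52 ± 0.18, missed the threshold (adjusted p = 0.0577). It passed with quantile scaling within each fraction (adjusted p = 0.0406) or over all arrays (adjusted p = 0.0307). It also passed with dim genes left out (adjusted p = 0.0375) and with the mean of all probe sets (0.76, adjusted p = 0.0121). Zc3h12a stood at 0.12 ± 0.23 (adjusted p = 0.825) and Zfp36l1, at background in nascent RNA, at -0.13 ± 0.22 (adjusted p = 0.799). Khsrp had less nascent than total signal at each time, by -0.45 at 0 min, -0.64 at 45 min and -0.60 at 270 min, of which the 45 min value passed.

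**Figure D3:**
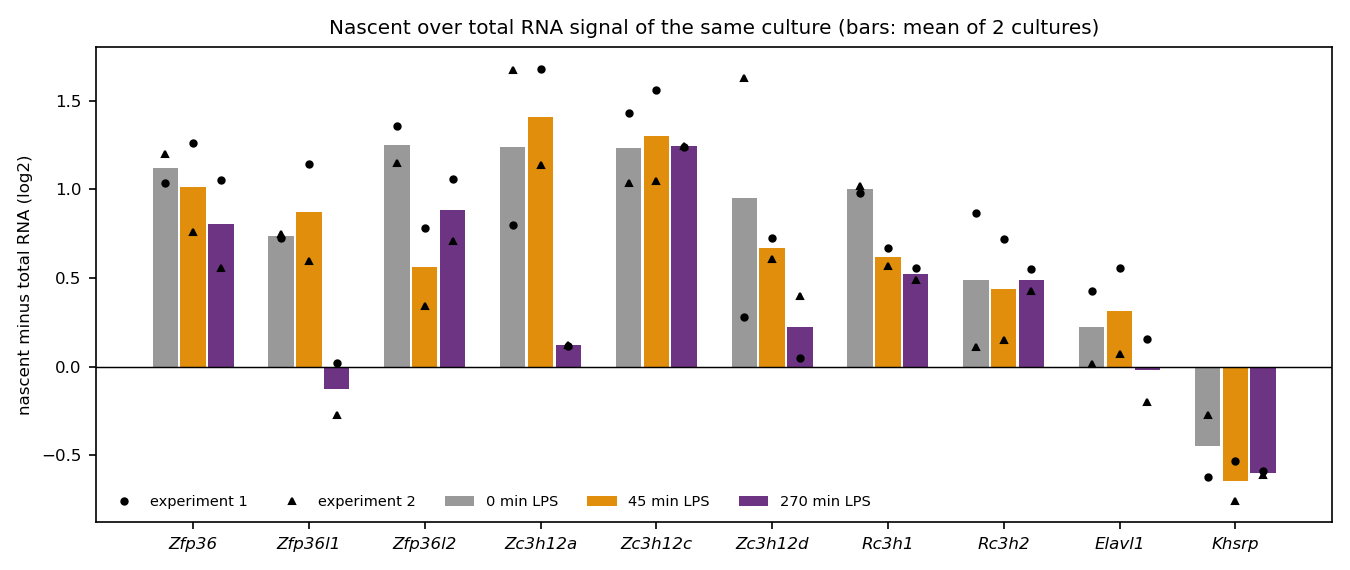
Nascent minus total RNA signal of the same culture (y axis, log2) for each gene at 0 (grey), 45 (orange) and 270 min (purple) of LPS; bars are means of 2 cultures, circles experiment 1 and triangles experiment 2. Zc3h12c stays near 1.2 to 1.3 at all 3 times, Zc3h12a falls to 0.12 at 270 min, and Khsrp lies below 0.

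The change of this ratio with time was tested as the interaction of fraction and time. Of the 10 genes, Zc3h12a passed, at 270 min against 45 min, where its ratio was 0.12 at 270 min and 1.41 at 45 min (-1.29 ± 0.32, adjusted p = 0.0318, lower in both experiments). That comparison called 1.80% of all genes lower and 1.41% higher, and none of the 10 higher, also at an unadjusted p of 0.05. The Zc3h12a call was lost when either culture of either time was left out, with -1.02 and -1.56 without the first and the second 45 min culture, and -1.29 without either 270 min culture. It was also lost without pairing by culture (adjusted p = 0.303), with quantile scaling over all arrays (-1.27, adjusted p = 0.0585) or within each fraction (-1.28, adjusted p = 0.064) and with each array centred on its median (-1.25, adjusted p = 0.0928). At 270 min against 0 min limma called none of the 10 (2 lower at an unadjusted p of 0.05), with 0.120% of all genes higher and 0.722% lower. Zc3h12a (-1.12 ± 0.32, adjusted p = 0.17) and Zfp36l1 (-0.86 ± 0.30, adjusted p = 0.376) had the lowest values, and without the first 0 min culture Zc3h12a (-1.55) and Zc3h12d (-1.40) passed. At 45 min against 0 min none was called either (1 lower at an unadjusted p of 0.05), with 0.476% of all genes higher and 0.567% lower. The nascent and total responses of Zfp36 at 45 min differed by -0.11 ± 0.27 (95% interval -0.68 to 0.47), and those of Zc3h12c by 0.07 ± 0.27 (-0.50 to 0.64).

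Patterns over the 6 group means, each gene centred on its own mean, were compared by their root mean square difference on the log2 scale. The nearest genes to Zfp36 were Nfkbid (0.20), Ppp1r15a (0.25) and Ier3 (0.29). Zc3h12c lay nearest to Pde4b (0.14), Ets2 (0.19) and Tagap (0.21), and Zc3h12a to Gtf2b (0.20), Pim1 (0.23) and Tlr2 (0.24). For Zfp36l1 these were Dio2 (0.27), Fgd4 (0.27) and Fam214a (0.29), for Zfp36l2 Samd8 (0.13), Akap10 (0.13) and Skp2 (0.14), and for Zc3h12d Ypel2, Kcnk13 and Tbc1d14, each at 0.09. Among the members, Zfp36l2 and Zc3h12d were nearest to each other (0.33), as were Zc3h12a and Zc3h12c (0.65), while Zfp36 lay 0.73 from its nearest member, Zc3h12a, and Zfp36l1 lay 0.85 from Zc3h12d. Nearest members thus crossed the protein families for Zfp36, Zfp36l1, Zfp36l2 and Zc3h12d. The 4 remaining genes varied by under 1 log2 unit over the groups on the probe sets used. Group means of the second Rc3h1 probe set ranged more widely, from 9.22 to 10.57.

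The listed transcripts that these factors are known to act on were mostly higher after LPS. That list was chosen with earlier results of these data known, so its counts are no test of the factors' action. Of 20 listed targets of tristetraprolin, Regnase-1 or Roquin, 17 were called higher in nascent RNA at 45 min and 14 at 270 min against 0 min, and 15 and 17 in total RNA at the same times, with none called lower in any of the 4, also at an unadjusted p of 0.05. Of all genes, 3.05% were called higher at 45 min and 8.87% at 270 min in nascent RNA, and 0.662% and 7.02% in total RNA. The list's median difference from 0 min was 3.30 at 45 min and 3.85 at 270 min in nascent RNA, and 2.71 and 4.19 in total RNA. Over all genes these medians were 0.106 and 0.119 in nascent and -0.01 and 0.075 in total RNA. Ptgs2, the inducible cyclooxygenase, was 5.81 ± 0.19 higher at 45 min in nascent RNA, and Il1b 5.43 ± 0.23. Il6, the target for which Regnase-1 is best known, was at least 102-fold higher at 270 min than at 0 min in nascent RNA and at least 85.3-fold higher in total RNA, with the 0 min arrays at background. In nascent RNA at 270 min against 45 min 6 targets were called higher and 5 lower, with Il6 (6.01 ± 0.28) and Cxcl3 (3.75 ± 0.22) among the first and Il10 among the second (at least 6.99-fold lower). In total RNA 8 were called higher and 3 lower. Of all genes, 6.74% were called higher and 10.0% lower between these times in nascent RNA, and 6.64% and 11.5% in total RNA. The change in nascent over total signal between 45 and 270 min was called lower for 9 of the 20, where 1.80% of all genes were. Its median was -0.95 over the list and -0.061 over all genes. Lcn2 (-2.13 ± 0.29), Il12b (-1.87 ± 0.30) and Il1a (-1.77 ± 0.31) were among the 9.

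Of 14 kinases, phosphatases, proteases and partners that act on the factors, nascent RNA at 45 min had 5 called higher and 1 lower, where 3.05% and 5.88% of all genes were. They included Dusp1, the phosphatase that switches off p38 (2.65 ± 0.34), Mapkapk2, the kinase that phosphorylates tristetraprolin (2.15 ± 0.22), and Bcl10 (1.52 ± 0.31) and Malt1 (1.19 ± 0.20), which form the complex that cleaves Regnase-1 and the Roquins. At 270 min against 0 min Malt1 (1.64 ± 0.20 in nascent and 2.00 ± 0.20 in total RNA) and Mapkapk2 (1.87 ± 0.22 in nascent and 1.64 ± 0.22 in total RNA) were still higher, and Btrc, part of the ligase that marks Regnase-1 for degradation, was lower (-0.91 ± 0.19 in nascent and -0.90 ± 0.19 in total RNA). In total RNA Dusp1 was 3.63 ± 0.34 higher at 45 min than at 0 min, and at 270 min it fell by 3.20 ± 0.34 from 45 min. In total RNA 2 of the 14 were called higher at each time against 0 min, where 0.662% of all genes were at 45 min and 7.02% at 270 min. Over the 4 comparisons with 0 min, 9 of the 14 were called at least once, and fewer without the second nascent array of 45 or of 270 min. The share of all genes called at least once was not computed, so nothing is read from that count.

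Genes of the decay machinery had calls in both directions. At 270 min against 0 min 8.87% of all genes were called higher and 14.2% lower in nascent RNA, and 7.02% and 12% in total RNA, and the counts of these lists at 270 min are not read as apart from those shares. Of 17 decapping and 5′ decay genes, 1 was called higher in nascent RNA at 45 min, Pnrc1 (1.00 ± 0.23), where 3.05% of all genes were. Nothing is read from that count. At 270 min 3 were called higher and 1 lower in nascent RNA, and 3 higher and 4 lower in total RNA. Dcp2, the decapping enzyme (2.49 ± 0.20 in nascent and 2.21 ± 0.20 in total RNA at 270 min), and Xrn1, the 5′ exonuclease (1.70 ± 0.20 in nascent and 1.21 ± 0.20 in total RNA), were the largest rises. Of 19 deadenylase genes and partners, nascent RNA at 270 min had 2 called higher and 5 lower, and total RNA 4 lower. Cnot6l, a catalytic subunit, fell by 1.14 ± 0.20 in nascent and by 1.03 ± 0.20 in total RNA, and Pan2 fell by 1.20 ± 0.18 in total RNA. At 45 min Btg2, a partner of the deadenylase, was 2.93 ± 0.31 higher in nascent and 3.07 ± 0.31 higher in total RNA. Of 17 exosome and 3′ decay genes, 6 were called lower in nascent RNA at 45 min (5.88% of all genes), among them Exosc8 (-1.69 ± 0.27), Exosc9 (-1.43 ± 0.21) and Exosc7 (-1.16 ± 0.17), 2 at 270 min and 1 in total RNA at 270 min. Over the 4 comparisons with 0 min, 7 of these 17 were called at least once, but 3 without the second 0 min nascent array and 4 without either 45 min nascent array; for the deadenylase list it was 9, and 5 without the second 0 min nascent array, and for the decapping list 8, and 5 without the second 0 min total array. The share of all genes called at least once was not computed, so nothing is read from these counts over the 4 comparisons. The exosome list's nascent median at 45 min was -0.65, beside 0.11 over all genes. For Exosc8 and Exosc9 the nascent and total changes at 45 min differed by -1.48 ± 0.32 (adjusted p = 0.0302) and by -1.41 ± 0.31 (adjusted p = 0.0315). Without pairing by culture 0 of all genes were called lower in this comparison, against 113 with it, so both calls were lost there.

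Other relatives and RNA-binding proteins moved in small numbers. Of 9 further family relatives, N4bp1, which carries a Regnase-like RNase domain, was called higher in nascent RNA at 45 min (0.89 ± 0.19) and at 270 min (2.08 ± 0.19) and in total RNA at 270 min (1.88 ± 0.19), and Mex3c at 270 min in both fractions (0.71 ± 0.23 in nascent and 1.11 ± 0.23 in total RNA). In nascent RNA at 45 min 3.05% of all genes were called higher. With so few relatives, nothing is read from their number. Of 14 other AU-rich or stem-loop binding proteins, 1, Tia1, was called lower in nascent RNA at 45 min (-0.89 ± 0.20), near the 5.88% of all genes. At 270 min 2 were called higher and 2 lower in each fraction, the same 4 genes in both. These counts are near the shares of all genes called at 270 min (8.87% higher and 14.2% lower in nascent RNA, 7.02% and 12% in total RNA). Arid5a, which protects Il6 mRNA from Regnase-1, was 1.77 ± 0.28 higher in nascent and 1.67 ± 0.28 higher in total RNA at 270 min. Zc3hav1, the zinc finger antiviral protein, was 1.55 ± 0.19 higher in nascent and 1.27 ± 0.19 higher in total RNA. Celf2 (-1.79 ± 0.38 in nascent and -1.20 ± 0.38 in total RNA) and Hnrnpl (-1.01 ± 0.20 in nascent and -0.91 ± 0.20 in total RNA) were lower.

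**Figure D4:**
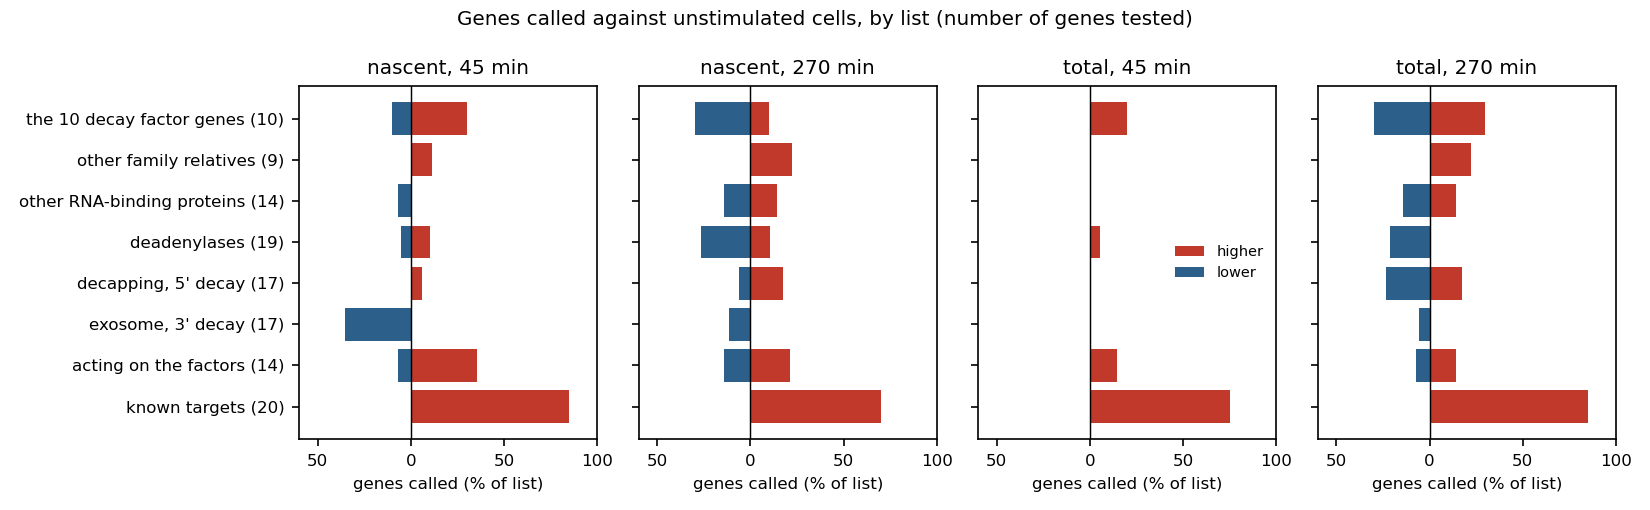
Share of each gene list (x axis, % of genes tested, whose number stands beside the list) called higher (red, right) or lower (blue, left) against unstimulated cells in 4 comparisons. The known targets reach 14 to 17 of 20 genes called higher, and the 10 decay factor genes have calls in both directions in 3 of the 4 panels.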

How the data were processed

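Nascent and total RNA of 6 cultures was hybridised to 12 arrays, grouped by their titles. Per the labels' protocols, input to amplification was 100 ng (nascent) or 200 ng (total). The authors deposited linear intensities, 1 per probe set; the submitters' processing notes name RMA and the Affymetrix Expression Console, whose versions are not given. log2 of the deposited intensities was taken here, with no offset and no filter. RMA's scaling hides shifts shared by all genes, and dim genes' folds are compressed. Precision is limited by 2 arrays a group.

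Of 35557 probe sets, 21789 had 1 symbol in the platform annotation, 1621 several and 12147 no entry; 21698 were found in RefSeq's gene table (GRCm38.p6), which changed 0 symbols. For each of 19938 symbols the probe set with the highest mean log2 value was used. Paralogs such as the Zfp36 family may share signal between probe sets.

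limma 3.58.1 in R 4.3.3 (lmFit, eBayes with an intensity trend) fitted 6 group means to 12 arrays for comparisons between times (residual degrees of freedom 6, prior 7.4), and a mean per time to the 6 nascent minus total differences within cultures for fraction and interaction (3, prior 16.5). Benjamini-Hochberg adjustment ran over all symbols, and adjusted p under 0.05 was called. The fits were tested on simulated data. Bounds ("at least") replace a dim gene's value on each array by the olfactory receptor level where that is higher. Tables and figures were made with Python 3.11.15, numpy 2.4.6, pandas 2.3.3 and matplotlib 3.10.9.

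The design names 2 independent experiments, so the number pairs the arrays. Deviations of nascent and total arrays of a culture correlated at -0.055 to 0.419 (3 pairs), and those of arrays of the same experiment and fraction at -0.054 to 0.645 (6 pairs). Pairs of the same experiment that differed in both time and fraction gave -0.295 to 0.445 (6 pairs). Arrays of a culture were thus not more alike than these. The pairing by culture rests on the design and not on these values. Whether the cultures of an experiment came from separate mice is not given.

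The members, the 7 gene lists and the marker lists were chosen with earlier results of these data known. Named genes are the 10 members, up to 4 called genes per list and comparison with the largest change, and for likeness the 3 symbols with the smallest distance for members that vary by at least 1 log2 unit. Gene lists are described by counts and medians, with no set test. Alternatives were the experiment block, other scalings, dim genes left out, an offset of 16, no trend, arrays of 1 fraction, the mean of all probe sets, and each array or culture left out.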

Additional observations from a re-analysis of the deposited data

Results flagged for a closer look

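The change in the nascent over total ratio of Zc3h12a between 45 and 270 min differed from 0 by the interaction test: -1.29 ± 0.32 (log2, limma adjusted p = 0.0318), from a ratio of 0.12 at 270 min against 1.41 at 45 min, with -1.56 in experiment 1 and -1.02 in experiment 2. The nascent response from 45 to 270 min was -0.96 and the total response 0.33. The call was lost without each of the 4 cultures in turn (-1.56 to -1.02), with either quantile scaling (adjusted p = 0.0585 and 0.064), with median centring (adjusted p = 0.0928) and without pairing by culture (adjusted p = 0.303). No explanation was tested.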

How the results depend on the processing

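Of the 24 calls between times, 24 were kept under the 8 alternatives that used all arrays of a comparison, and 21 also with each array left out; the 3 lost ones stand in the report (Zfp36l2 and Zc3h12a in nascent RNA at 45 min, Zfp36 in total RNA at 270 min). With the replicate block 3 calls were gained, Zfp36 in nascent RNA at 270 min against 0 min and Zc3h12a in nascent RNA at 270 min against 45 min and in total RNA at 45 min, and no other call between times changed; the cause was not tested. Of the 18 calls on nascent against total RNA, 11 were kept under the alternatives and 7 also with each culture left out. Over all 1380 values of the members under alternatives, 1319 kept their side of the threshold, 42 lost and 19 gained a call. None of the called ones reversed. Among the 1319 were 63 uncalled values that changed sign. Leaving out arrays or cultures, the members called lower in nascent RNA at 45 min numbered 0 to 1, and those called higher at 270 min against 0 min 1 to 2 (2 also with the replicate block and with nascent arrays alone). For nascent against total RNA with a culture left out, the numbers were 1 to 4 higher and 0 lower at 45 min, 1 to 3 higher at 270 min, 0 to 2 lower for the interaction of 270 against 0 min and 0 for that of 270 against 45 min. That last count was also 0 with either quantile scaling, median centring and no replicate block. Members called lower in nascent against total RNA numbered 1 at 0 min with quantile scaling within each fraction, 0 at 45 min with either quantile scaling, and 1 at 270 min with quantile scaling within each fraction, with dim genes left out and with no trend. List genes called against unstimulated cells in at least 1 comparison numbered 5 instead of 9 for deadenylases with quantile scaling within each fraction; with each array left out they were 5 to 10 for deadenylases, 5 to 10 for decapping, 3 to 8 for the exosome and 5 to 9 for genes acting on the factors. Over all genes, calls lower in nascent RNA at 45 min numbered 1838 with the block against 1172 without (256 to 1510 with an array left out), and lower in total RNA at 45 min 17 with it against 4 without and 2 with an offset or no trend. Calls higher in nascent than in total RNA at 270 min were 824 without pairing against 1244 with it. The interaction of 45 against 0 min had 3 to 96 genes called higher and 0 to 141 lower under the alternatives that used all arrays, that of 270 against 0 min 2 to 25 and 47 to 141, and that of 270 against 45 min 54 to 320 and 130 to 367. With a culture left out they were 0 to 380 and 0 to 1350, 17 to 283 and 83 to 836, and 3 to 183 and 22 to 255 for the same 3 interactions. With 2 arrays a group, changes of the size of the Roquins' intervals could not be told from none.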
